A study of Homo sapiens with 14 samples.

Results

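Circular RNAs (circRNAs) with a genomic span of more than 300 and up to 1000 bases, called short-span circRNAs here, were taken from the deposited circRNA tables of 6 subcellular fractions of HepG2, a human liver cancer cell line. Entries of the 6 tables with the same chromosome, start and end were joined, and one was kept where its end minus its start plus 1 lay above 300 and at or below 1000. This gave 1236 of 11227 circRNAs, or 11%. A further 452 entries spanned up to 300 bases and 9539 spanned more than 1000. The fractions were nucleus, cytoplasm, ribosome, cytosol, exosome and whole cell, each with 2 libraries from the same untreated line. Ribosomal RNA was depleted from all of them except the exosomal RNA, per the labels. The labels do not say whether the 2 libraries of a fraction came from separate cultures, so p-values measure only the spread between these libraries, which may be technical. The 12 libraries held 2301 to 72415 circRNA reads, with the exosomal and nuclear libraries lowest. Of 16 hepatocyte marker genes, 4 hosted any circRNA (ALB, APOB, FGA and FGG), and none of the 13 genes marking blood cells, fibroblasts and endothelium did.

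A circRNA forms when the splicing machinery joins a downstream donor site to an upstream acceptor site, which closes the RNA in between into a ring. The ring has no free end, so exonucleases do not readily degrade it, and the read that crosses the back-splice junction is what identifies it. A circRNA can hold a single exon or several exons. The span between its ends includes any intron lying between those exons and is therefore an upper limit to the length of a spliced ring.

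The ends of these circRNAs could be read in part from RefSeq promoter windows (GRCh38.p14, 250 bases before to 50 after an annotated transcript start). Such a window held the flanking bases of 13 ends, and the strand of the host gene was known for 12 of them. All 12 carried the splice dinucleotide on the host strand, AG before an acceptor end or GT after a donor end. Of 102 such ends of all other circRNAs, 99 did. AG made up 7.26% and GT 4.62% of the adjacent base pairs in all 35116 windows. Whether the programs that called the circRNAs require these dinucleotides is not given in the sources used here. The match may therefore be set by the calling, and no conclusion is drawn from it. Of the 12 ends, 2 belong to POLD1 entries that start 3 bases apart, so they are not separate cases. In 4 of the 12, in ARHGAP12, ERC1, MSANTD3 and PRPSAP2, the acceptor end of the circRNA was the first base of an annotated transcript. The most abundant of the 1236 circRNAs, from CDYL at chr6:4891713-4892379, is shown by its last 244 bases in capitals and the 56 bases that follow, which open with the donor GT (chr6:4892136-4892435, plus strand).
CDYL: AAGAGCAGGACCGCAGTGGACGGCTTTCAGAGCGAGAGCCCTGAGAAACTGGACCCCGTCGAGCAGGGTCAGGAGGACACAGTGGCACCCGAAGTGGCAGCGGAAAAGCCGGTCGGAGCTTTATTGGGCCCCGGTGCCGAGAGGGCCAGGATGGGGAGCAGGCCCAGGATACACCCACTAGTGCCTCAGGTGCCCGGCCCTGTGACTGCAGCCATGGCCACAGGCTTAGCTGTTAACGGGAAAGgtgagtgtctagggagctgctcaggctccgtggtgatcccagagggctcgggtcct
Acceptor ends are shown for ERC1, PRPSAP2 and POLD1, all on the plus strand, as 30 bases before the start in lower case and the first 30 bases of the circRNA in capitals.
ERC1 from 1027748: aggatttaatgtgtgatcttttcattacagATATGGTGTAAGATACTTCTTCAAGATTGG
PRPSAP2 from 18865469: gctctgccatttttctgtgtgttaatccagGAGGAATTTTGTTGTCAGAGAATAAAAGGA
POLD1 from 50398851: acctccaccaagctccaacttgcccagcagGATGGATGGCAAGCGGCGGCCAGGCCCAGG
POLD1 from 50398848: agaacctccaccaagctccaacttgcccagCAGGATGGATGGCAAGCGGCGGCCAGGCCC
The 2 POLD1 entries, from the gene of the catalytic subunit of DNA polymerase delta, end at the same base, chr19:50399484, and start 3 bases apart. Each start follows a cag, so the repeated cag leaves an AG before both. The entry from 50398851 was listed by both callers and had 132 reads over the 12 libraries. The entry from 50398848 was listed by the caller headed CIRC alone and had 14 reads. Exon structure was not analysed here, so what follows on microRNAs concerns the genomic span, and a spliced ring may lack them. A hairpin or mature sequence of a microRNA lay whole within the genomic span of 8 of the circRNAs. The most abundant of these, from GCN1 (chr12:120154970-120155719), spans the MIR4498 hairpin, which lies on the strand of the gene (chr12:120155434-120155499, minus strand), shown with the mature microRNA in capitals.
MIR4498: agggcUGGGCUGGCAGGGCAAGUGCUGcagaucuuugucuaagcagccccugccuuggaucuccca
Others came from DHRS3, EIF4A2, PLEKHM1, PLEKHM1P1 and PPP6R1. PLEKHM1P1 is a pseudogene copy of PLEKHM1 and their entries both span 627 bases, so the reads of these 2 may be split between copies and are uncertain.

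Most of the 1236 circRNAs came from different genes. A host gene, one whose RefSeq span holds both ends, was found for 1229 of them, and 24 of these lay in more than 1 equally ranked gene. There were 1053 host genes, of which 905 hosted 1 circRNA of this size, 123 hosted 2, 22 hosted 3 and 3 hosted 4. Protein-coding genes hosted 1202 and long noncoding RNA genes 20. The median span was 582 bases. An end shared with another entry was found for 36.4% of them (450 of 1236), against 63.6% (6064 of 9539) among circRNAs above 1000 bases. Among circRNAs up to 300 bases it was 39.6% (179 of 452). These differences were not tested.

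The 3 genes with 4 entries differed in what those entries were. The 4 of ASH1L, a histone methyltransferase, lay at separate places in the gene, with 134, 59, 14 and 3 reads in all. CCAR1, a regulator of transcription and apoptosis, likewise had separate entries with 51, 30, 16 and 3 reads. The 4 of NISCH, which encodes the imidazoline-binding protein nischarin, shared the start chr3:52490232 and ended at 52490675, 52490676, 52490678 and 52490679, with 2, 3, 62 and 42 reads. All 4 NISCH entries were listed by CIRC alone. Pairs of this kind, with both ends within 3 bases, numbered 15 and involved 21 circRNAs (1.70%), against 44 of those above 1000 bases (0.461%). Of those up to 300 bases, 13 were in such pairs (2.88%). CIRC alone listed both entries in 10 of the 15 pairs, and in 4 more it listed one while both callers listed the other. FKBP8, POLD1, MAD1L1 and FAM120A were those 4, and in each the entries lay 3 bases apart. In FKBP8, a membrane-anchored co-chaperone, the entries had 106 reads (both callers) and 43 reads (CIRC alone), and in MAD1L1, a spindle checkpoint gene, 127 and 12.

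The 2 callers, headed Ciri and CIRC in the tables, both listed 593 of the 1236 circRNAs (48.0%) in at least 1 fraction, against 3957 of 9539 (41.5%) above 1000 bases. Ciri alone listed 203 (16.4%), against 2009 (21.1%) of the longer ones. CIRC alone listed 428 (34.6%), against 3435 (36%), and the remaining 12 had each caller in a different table. Within a fraction, the share listed by both callers was 38.2% of 225 nuclear entries, 53.6% of 808 cytoplasmic and 46.6% of 369 ribosomal ones. It was 53.6% of 549 cytosolic, 29.6% of 54 exosomal and 51.1% of 628 whole-cell entries. Among entries above 1000 bases the shares were 32.0, 44.9, 38.7, 45.0, 33.4 and 43.8% in that order. The shorter circRNAs were thus the higher ones in 5 of 6 tables, with the exosome the exception, and the mean difference was 5.83 ± 4.79 percentage points (SD, n = 6 tables). This did not pass a two-sided exact sign-flip permutation test over the tables (p = 0.0625, smallest possible 0.03125; adjusted over the 3 measures compared, p = 0.188). The other 2 measures were the median reads per entry, which differed by 0.0833 reads (exact permutation p = 1), and the ratio of Ciri to CIRC reads where both listed the circRNA, whose log2 differed by -0.01 (exact permutation p = 0.812). The tables come from 1 cell line and share many circRNAs, so they are not independent samples.

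**Figure D1:**
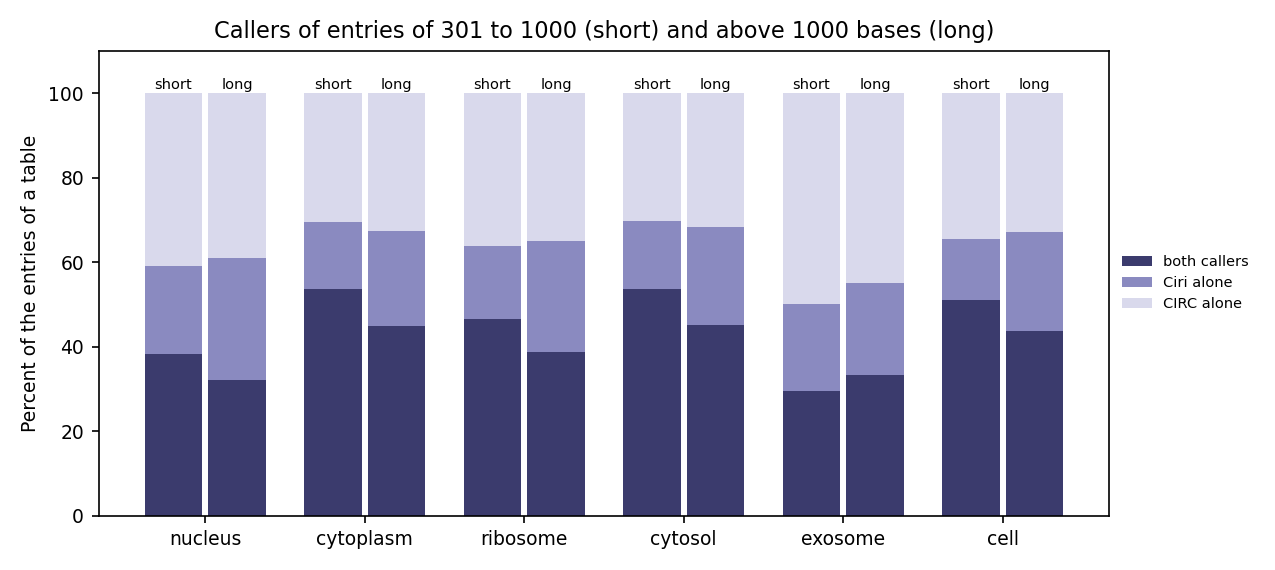
Percent of the entries of each table (y axis) listed by both callers, by Ciri alone and by CIRC alone, for short-span circRNAs (short, left bar) and above 1000 bases (long, right bar) in 6 fractions. The share for both callers is larger in the short bar in 5 fractions and smaller in the exosome (29.6% against 33.4%).

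The most abundant single-caller entries were those of Ciri. The 5 most abundant of those listed by Ciri alone had mean levels of 2.25 to 4.07 RPTM (reads per 10000000 library reads, averaged over the 6 fractions), against 0.405 to 0.753 RPTM for the 5 most abundant of CIRC alone. The first group held ZRANB1, ASPHD1, ZNF609 and HAGH, together with chr16:31090775-31091342, which has no host. The entry of ZNF609, a zinc finger gene known for a circRNA of its second exon in muscle cells, had 5 and 3 reads in the nuclear libraries, 53 and 35 in the cytoplasmic, 53 and 20 in the ribosomal, 66 and 50 in the cytosolic and 42 and 37 in the whole-cell libraries. It was unlisted in the exosome. An unlisted circRNA had no entry in that table, and since each entry of a caller needed reads in both replicates, unlisted is not a measured 0. The second group held HPCAL1, NISCH, CCAR1, ABCB4 (a phospholipid transporter of the bile canaliculus) and KIF3B.

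The circRNAs nearest the limits of the size range had 2 to 91 reads in all. Just above 300 bases lay circRNAs of ZFAND4 with 25 reads in all, ARHGEF28 with 7, TRIM66 with 5 and PKN2 with 2. At 300 bases lay SCP2 with 53, CAMK1 with 13, and MIDEAS and ELF1 with 4 each. At 1000 bases lay IGF2BP1 with 91 reads, POLR2E with 32, ZNF92 with 7 and NCKAP1 with 5. The next above were PSMA6 with 9 and NEURL4 with 3, at 1002 bases.

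Short-span circRNAs took a larger share of circRNA reads in both nuclear libraries than in any other, with the second exosomal library next. They held 15.6 and 17.0% of the circRNA reads of the 2 nuclear libraries, against 10.1 and 9.85% in the cytoplasm. The ribosome libraries had 10.9 and 11%, against 9.20 and 9.64% in the cytosol. The exosomal libraries had 10.9 and 15.4%, against 8.84 and 9.71% in the whole cell. By number of entries, they made up 17.3% of the nuclear, 11.6% of the cytoplasmic, 12.7% of the ribosomal, 10.8% of the cytosolic, 12.2% of the exosomal and 11.8% of the whole-cell table. In RPTM the order was another, since the nucleus held few circRNA reads: nuclear libraries had 147 ± 12.1, cytoplasmic 727 ± 28, ribosomal 307 ± 2.38, cytosolic 571 ± 29.1, exosomal 36.7 ± 1.99 and whole-cell libraries 512 ± 18.5 (SD, n = 2 each). A larger share in the nucleus is therefore not a higher level there.

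The shares differed among the 6 fractions (exact permutation test over all 10395 pairings of the 12 libraries, p = 0.00308). The test rested on the nuclear libraries: with replicate 1 of the nucleus left out p was 0.094, and with replicate 2 left out 0.0943, by the same exact test. Without the 10 entries with the most reads, of any span, p was 0.0691 by that exact test. Between 2 fractions of 2 libraries the smallest exact p is 0.333, and each of the 3 differences reached only that: 6.31 percentage points for nucleus against cytoplasm, 1.52 for ribosome against cytosol and 3.84 for exosome against whole cell. The libraries did not overlap in any of the 3. Without those 10 entries the exosomal shares, 10.6 and 15.3%, overlapped the whole-cell ones, 11.3 and 12.2%. The nuclear shares were then 16.8 and 18.1%, against 12.4 and 12.2% in the cytoplasm. CircRNAs up to 300 bases held 4.24 and 4.01% of the reads in the nucleus, against 19.7 and 19.5% in the cytoplasm. They held 10.3 and 28.9% in the exosome, against 21.3 and 20.4% in the whole cell. Their bearing on the differences was not tested.

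The exosomal excess was not found among circRNAs listed by both callers, or with CIRC reads only. RAB37 had 22 and 114 reads, GRM4 9 and 77 and TCF25 7 and 20 in the 2 exosomal libraries, and none of the 3 was listed in another fraction. These 3 were entries of Ciri alone and were named after their values were seen. RAB37 and GRM4 alone made up 32.2 and 21.8% of the reads of this size range in the second exosomal library. Among circRNAs listed by both callers in at least 1 table, the exosomal shares were 10.01 and 10.2%, against 11.98 and 13.1% in the whole cell. Over all entries they had been 10.9 and 15.4%, against 8.84 and 9.71%, so the shares of both fractions moved. The difference turned to -2.42 points among circRNAs listed by both callers, and the part of the 3 entries in this was not tested. In that set the nuclear shares were 17.6 and 19.04%, against 13.3 and 13.0% in the cytoplasm, and the test across fractions gave an exact permutation p of 6.73e-04. The exosomal RNA was not depleted of ribosomal RNA, and this difference in preparation cannot be told apart from the fraction.

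**Figure D2:**
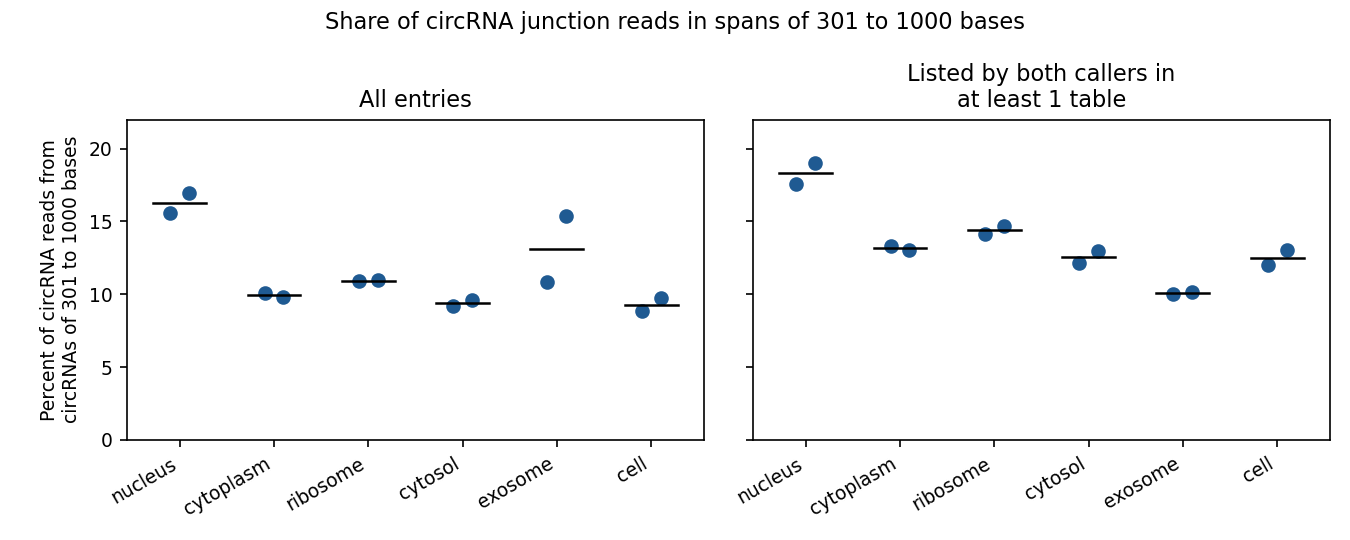
Percent of circRNA reads held by short-span circRNAs (y axis) in each library (points, 2 a fraction) with the mean (line), over all entries (left) and over circRNAs listed by both callers in at least 1 table (right). The nuclear libraries are highest on the right (17.6 and 19.04%), while the second exosomal library stands at 15.4% on the left and 10.2% on the right.

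Single circRNAs were followed through the fractions next. The 10 most abundant of those listed by both callers came from CDYL, ZKSCAN1, PNN, SMARCA5, SDF4, MATR3, GCN1, PCMTD1, P4HB and PVT1, with mean levels over the 6 fractions from 18.7 RPTM for CDYL to 3.11 for PVT1. CDYL encodes a chromodomain corepressor. Its circRNA had 3.57 and 5.46 RPTM in the nuclear libraries, 30 and 25.9 in the cytoplasmic, 21 and 16.4 in the ribosomal, 45.7 and 32 in the cytosolic, 3.5 and 1.5 in the exosomal and 19.7 and 20.2 in the whole-cell libraries. Cytosol was thus highest in RPTM, and on that scale its libraries did not overlap with those of any other fraction. As a share of circRNA reads it was not highest. The share was 0.71 and 0.56% in the cytosolic libraries, 0.74 and 0.59% in the ribosomal and 0.998 and 0.652% in the exosomal ones. An edgeR test of ribosome against cytosol, relative to circRNA reads, did not pass for CDYL (log2 fold change -0.14, edgeR adjusted p = 0.669). PNN is a gene of a splicing-associated protein of nuclear speckles and cell junctions. In RPTM its circRNA was likewise highest in the cytosol, at 36.2 and 26.9, and had 6.82 and 8.76 in the ribosome fraction. The circRNA of PCMTD1, an isoaspartate methyltransferase homologue, was also highest in the cytosol, with 0.930 and 0.706 RPTM in the ribosomal libraries, against 14.8 and 17.2 in the cytosolic ones, and no other fraction exceeded 2.13. SDF4 and P4HB, which encode luminal proteins of the Golgi and the endoplasmic reticulum, stood out by their nuclear level. SDF4 had 10.8 and 14.5 RPTM in the nuclear libraries, against 9.48 and 6.77 in the cytoplasmic ones, and P4HB 4.37 and 6.09, against 5.42 and 5.88. Neither was listed in the exosome.

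**Figure D3:**
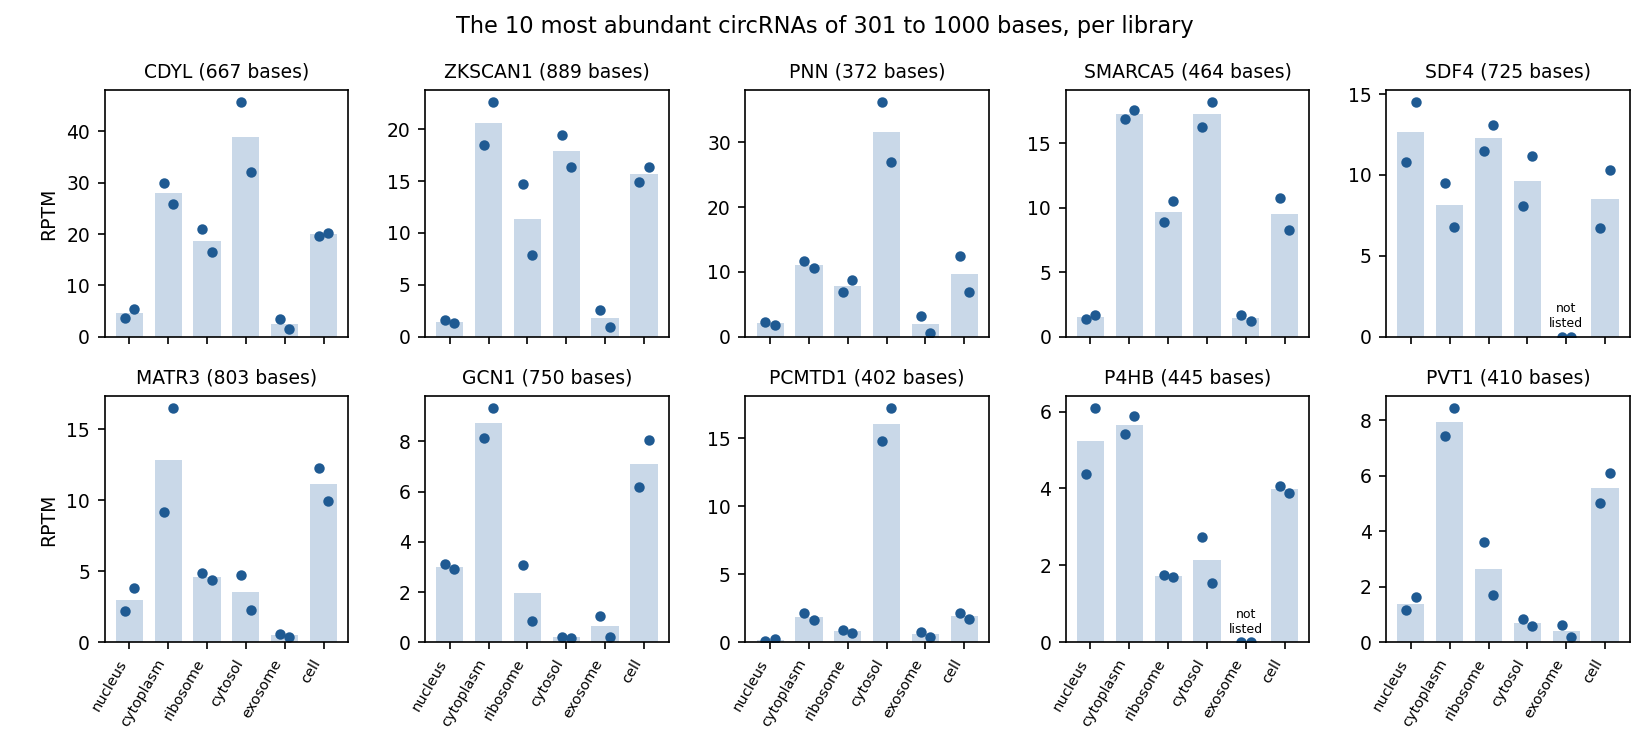
Level in RPTM (y axis, own scale in each panel) of the 10 most abundant short-span circRNAs listed by both callers, in 6 fractions (x axis), with the mean as a bar and the 2 libraries as points. CDYL, PNN and PCMTD1 peak in the cytosol, SDF4 is as high in the nucleus as anywhere, and SDF4 and P4HB are not listed in the exosome.

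All 6 tables listed 27 of the 1236 circRNAs (2.18%), against 1.61% of those above 1000 bases, and a single table listed 592 (47.9%), against 52.8%. The 27 included 8 of the 10 most abundant, as well as circRNAs of METTL3 (the m6A methyltransferase), IGF1R, POLR2A and RBM4.

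The fractions were compared with edgeR's quasi-likelihood test over all 12 libraries, with Benjamini-Hochberg adjustment over the 950 circRNAs tested and a threshold of 0.05. Tested were circRNAs listed by both callers in at least 1 table that passed a low-count filter, among them 136 of the 593 of this size range. The other 1100 were not tested. The filter scales its minimum of 10 reads to the depth of a library and asks for it in 2 libraries, so 3 reads sufficed in a nuclear library and 1 in an exosomal one, while a cytoplasmic library needed 18 or 21 and a cytosolic one 17 or 19. The 136 are thus selected in part on the contrasts themselves: SEC61A1, with 20 and 13 reads in the cytoplasm and unlisted in the nucleus, was not tested. Counts and medians of the 136 are descriptions. A fold change here is relative to the circRNA reads of the library (TMM scaling), not to all RNA, so it can be positive where the RPTM is lower. Its ± is an approximate standard error. No fold change is given where a fraction does not list the circRNA.

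In the nucleus against the cytoplasm, 70 of the 136 passed (51.5%, against 48.2% of all circRNAs tested), and 37 of the 136 were higher (27.2%, against 14.9% of all circRNAs tested) and 33 were lower (24.3%, against 33.3%). Of the 37 higher ones, 13 passed the filter through nuclear reads alone, and so had to be high there. In all, 25 of the 37 reached the minimum in a nuclear library and in no cytoplasmic one. Conversely, 16 of the 33 lower ones reached it in a cytoplasmic library and in no nuclear one. Of the 33 lower ones, 28 were unlisted in the nucleus. The balance turned with the filter. With at least 5 reads in 2 libraries, 25 of 357 were higher (7%, against 3.76% of all tested) and 91 lower (25.5%, against 26.8%). With no filter, 31 of 593 were higher (5.23%, against 2.56%) and 92 lower (15.5%, against 15.2%). The median log2 fold changes were -4.20, against -4.36 over all tested, and -3.65, against -3.89, in that order. Among circRNAs listed in both tables, 33 of 91 were higher (36.3%, against 23.9%) and 5 were lower (5.49%, against 7.39%). Under the other filters, in the same order, these became 22 and 6 of 122 (18% and 4.92%, against 11.3% and 9.62%). With no filter they were 19 and 7 of 137 (13.9% and 5.11%, against 8.54% and 8.67%). The median log2 fold change of the 136 was -0.03, against -0.76 over all tested. It was 0.37, against -0.37, with RLE factors, 0.48, against -0.25, with total circRNA reads and -2.49, against -3.18, with implied library totals. A change of scale shifts all fold changes of a comparison nearly alike, so these scalings could not test the gap between the medians. With unlisted circRNAs set to 1 read the medians were 0.15, against -0.09. The split of calls did depend on the scale, being 47 higher and 24 lower, 49 and 22, and 7 and 102 under the 3. With 1 nuclear library the calls shrank to 20 higher and 3 lower without replicate 1 and to 24 and 3 without replicate 2.

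The 2 circRNAs with the largest nuclear fold change among those listed in both tables, from WDR83 and MRPL4, passed the filter through nuclear reads alone, so their fold changes are given with no test. That of WDR83, a scaffold protein gene, had 11 and 11 reads in the nucleus, against 3 and 3 in the cytoplasm, or 1.27 and 1.4 RPTM, against 0.290 and 0.383. The log2 fold change was 4.40 ± 0.56. MRPL4, a mitochondrial ribosomal protein gene, followed with 9 and 12 reads in the nucleus, against 4 and 2 in the cytoplasm (log2 fold change 4.34 ± 0.54), and it was listed in no other fraction. GGCX, the vitamin K-dependent carboxylase of the liver, had 14 and 5 reads, against 2 and 4 (4.18 ± 0.63, edgeR adjusted p = 6.7e-06). The libraries of all 3 did not overlap. Like WDR83 and MRPL4, POMT1 would not have passed the filter without its nuclear reads, so its value is given with no test. POMT1, HIF1A (the hypoxia factor), SDF4 and BABAM1 came next, with log2 fold changes of 3.85, 3.35, 3.11 and 3.07. SDF4 and BABAM1 had the most reads of these: SDF4 94 and 114 in the nucleus, against 98 and 53 in the cytoplasm (3.11 ± 0.32, edgeR adjusted p = 4.1e-09), and BABAM1, of a BRCA1-associated complex, 19 and 21, against 15 and 14 (3.07 ± 0.43, edgeR adjusted p = 2.2e-06). P4HB also passed, at 2.38 ± 0.30 (edgeR adjusted p = 4.4e-07). With implied library totals as the scale its value turned to -0.11, while SDF4 and BABAM1 kept a positive value but no longer passed. AP3D1, an adaptor subunit of vesicle transport, was unlisted in the cytoplasm and had 22 and 12 reads in the nucleus, and 12 and 11 in the whole cell.

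The 5 lower in the nucleus and listed in both tables came from METTL3, RERE, CREBBP, ZKSCAN1 and SMARCA5, of which RERE is a corepressor, CREBBP a histone acetyltransferase, ZKSCAN1 a zinc finger factor with an abundant liver circRNA and SMARCA5 a chromatin remodelling ATPase. ZKSCAN1 had 14 and 10 reads in the nucleus, against 191 and 177 in the cytoplasm, or 1.61 and 1.27 RPTM, against 18.5 and 22.6 (log2 fold change -1.32 ± 0.35, edgeR adjusted p = 0.00459). SMARCA5 had 12 and 13 reads, against 175 and 138 (-1.02 ± 0.35, edgeR adjusted p = 0.0179). METTL3 had 2 and 3 reads, against 49 and 53 (-1.72 ± 0.56, edgeR adjusted p = 0.0132). The nuclear counts of METTL3, RERE and CREBBP lay between 2 and 6 reads. With DESeq2 only 1 of the 136 passed as lower in the nucleus, against 33 with edgeR. Among those unlisted in the nucleus the most reads in the cytoplasm were in NPEPPS (56 and 22), FUT8 (39 and 32), the core fucosyltransferase, and STK3 (29 and 30), a Hippo pathway kinase.

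Between the ribosome fraction and the cytosol, 67 of the 136 passed (49.3%, against 52.7% of all circRNAs tested). In the ribosome fraction 44 of the 136 were higher (32.4%, against 26.6% of all tested) and 23 were lower (16.9%, against 26.1%). Of the 44 higher ones, 28 reached the filter minimum in a ribosomal library and in no cytosolic one, 1 of them through ribosomal reads alone. Of the 23 lower ones, 10 reached it in a cytosolic library and in no ribosomal one, 2 of them through cytosolic reads alone. Of the higher ones 16 were unlisted in the cytosol, and of the lower ones 8 were unlisted in the ribosome fraction. Among circRNAs listed in both tables, 28 of 104 were higher (26.9%, against 23.9%) and 15 were lower (14.4%, against 20.3%). The median log2 fold change was 0.42, against 0 over all tested, and 0.48, against 0.07, with unlisted circRNAs set to 1 read. With implied library totals as the scale the split was 23 higher and 41 lower, with medians of -0.31 and -0.71. The filter turned it too. With at least 5 reads in 2 libraries, 39 of 357 were higher (10.9%, against 12.2% of all tested) and 112 lower (31.4%, against 39.7%). Their median was then -0.14, against -0.66 over all tested. With no filter, 81 of 593 were higher (13.7%, against 12.4%) and 133 lower (22.4%, against 26.7%), with a median of 0 in both. Among circRNAs listed in both tables these filters gave 12 higher and 32 lower of 190 (6.32% and 16.8%, against 8.56% and 24.4%). With no filter there were 28 higher and 16 lower of 208 (13.5% and 7.69%, against 12.8% and 15.2%).

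GCN1, whose protein binds ribosomes to activate the GCN2 kinase, led the circRNAs higher in the ribosome fraction. It had 30 and 6 reads there, against 2 and 2 in the cytosol, or 3.10 and 0.848 RPTM, against 0.212 and 0.192 (log2 fold change 4.13 ± 0.61, edgeR adjusted p = 2e-06). EPHB4, an ephrin receptor, had 28 and 24 reads, against 5 and 6 (3.34 ± 0.42, edgeR adjusted p = 1.6e-07). PVT1, a long noncoding RNA gene beside MYC, had 35 and 12, against 8 and 6 (2.81 ± 0.44, edgeR adjusted p = 4.1e-06). The libraries of the fractions did not overlap in these 3. HIF1A, MRPL2, PSMB5, CREBBP and CCNB1 had log2 fold changes of 2.48 to 2.94. These genes encode a transcription factor, a mitochondrial ribosomal protein, a catalytic proteasome subunit, a histone acetyltransferase and a mitotic cyclin. BABAM1 (20 and 12 reads in the ribosome fraction), MGAT4A (18 and 12) and BUD23 (19 and 5), the last a methyltransferase of ribosomal RNA, were unlisted in the cytosol. GCN1, MRPL2 and PSMB5 were also higher in the nucleus than in the cytoplasm, at log2 fold changes of 0.97, 1.16 and 1.09 (edgeR adjusted p = 0.0242, 0.045 and 0.0201), though their RPTM was lower there: GCN1 had 3.11 and 2.92 in the nucleus, against 8.13 and 9.33 in the cytoplasm. With implied library totals as the scale these 3 reversed, to -1.53, -1.31 and -1.39.

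PCMTD1 led those lower in the ribosome fraction, with 9 and 5 reads there, against 140 and 179 in the cytosol (log2 fold change -3.39 ± 0.38, edgeR adjusted p = 2e-08). DDX21, a nucleolar RNA helicase, had 6 and 7 reads, against 99 and 84 (-2.65 ± 0.39, edgeR adjusted p = 1.6e-06). IBTK had 2 and 1 reads, against 29 and 13 (-2.59 ± 0.69, edgeR adjusted p = 0.00232). The libraries of the fractions did not overlap in these 3 either. ZSWIM5, R3HDM1, SCNM1 (a splicing factor), CUX1 (a homeodomain factor) and ZNF652 had values from -2.42 to -1.77. Without their cytosolic reads ZSWIM5, R3HDM1 and SCNM1 would not have passed the filter, so their values are given with no test. PNN passed the test, at -1.12 ± 0.29 (edgeR adjusted p = 0.00164). CRKL, a signalling adaptor, had 53 and 43 reads in the cytosol and SNX6, a retromer-associated sorting nexin, 29 and 42, and both were unlisted in the ribosome fraction.

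In the exosome against the whole cell, 71 of the 136 passed (52.2%, against 46% of all circRNAs tested), and 3 of the 136 were higher (2.21%, against 4% of all tested) and 68 were lower (50%, against 42%). Of the 68, 64 were unlisted in the exosome, whose libraries hold 2304 and 2301 circRNA reads. The filter minimum was reached by 59 of the 68 in a whole-cell library and in no exosomal one. The 3 higher ones reached it in an exosomal library and in no whole-cell one, 2 of them through exosomal reads alone. Among circRNAs listed in both tables, 1 of 39 was higher (2.56%, against 5.78%) and 4 were lower (10.3%, against 8.51%). The counts depended on the scale, with 3 higher and 32 lower under RLE factors, 13 and 1 under total circRNA reads and 2 and 124 under implied library totals. Without exosome replicate 1 there were 2 higher and 3 lower, and without replicate 2 there were 1 and 10. The median log2 fold change was -5.65, against -5.17 over all tested, both set by unlisted circRNAs, and -0.34, against -0.01, with these set to 1 read. The TMM factors of the exosomal libraries were 1.93 and 2.25, against 0.769 to 0.925 in the others.

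The 4 lower and listed in both tables came from EPHB4, MATR3, METTL3 and PVT1. MATR3, a nuclear matrix RNA-binding protein gene, had 4 and 4 reads in the exosome, against 115 and 77 in the whole cell, or 0.610 and 0.399 RPTM, against 12.3 and 9.99 (log2 fold change -2 ± 0.49, edgeR adjusted p = 0.00384). EPHB4 had 2 and 1 reads, against 57 and 39 (-2.41 ± 0.62, edgeR adjusted p = 0.00576). With total circRNA reads as the scale neither passed, and METTL3 and PVT1 turned to 0.28 and 0.38. The circRNA higher in the exosome was that of IBTK, with 2 and 5 reads, against 3 and 3 in the whole cell (log2 fold change 2.72 ± 0.83). Without its exosomal reads IBTK would not have passed the filter, so its value is given with no test. At these counts its raw reads overlap, and its RPTM did too, at 0.305 and 0.498 in the exosome, against 0.320 and 0.389. SDF4, CREBBP and P4HB had the most whole-cell reads of those unlisted in the exosome, at 63 and 79, 41 and 32, and 38 and 30.

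**Figure D4:**
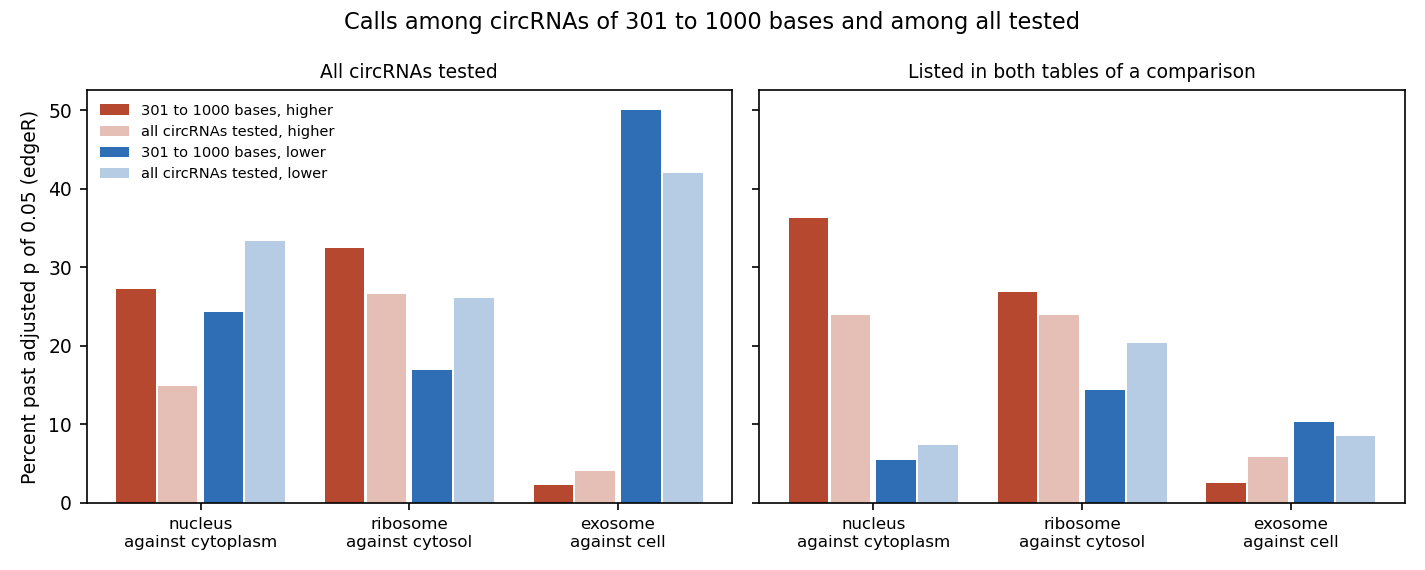
Percent of circRNAs past an edgeR adjusted p of 0.05 (y axis), higher (red) or lower (blue), for short-span circRNAs (dark bars) and all circRNAs tested (pale bars) in 3 comparisons, over all tested (left) and those listed in both tables of a comparison (right). The widest gap on the right is that of circRNAs higher in the nucleus, 36.3% against 23.9%.

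Host genes were also grouped by 4 lists. Genes known for circRNAs hosted 15 of the 1236, of which 9 were tested: 1 was higher and 4 were lower in the nucleus than in the cytoplasm, 4 were higher and 1 was lower in the ribosome fraction than in the cytosol, and 4 were lower in the exosome than in the whole cell. Genes of the secretory pathway and secreted liver proteins hosted 11, of which 3 were tested, with 2 higher (SDF4 and P4HB) and 1 lower (SEC31A) in the nucleus, 2 higher in the ribosome fraction and 2 lower in the exosome. APOB, the scaffold of secreted lipoproteins, hosted 3 that were not tested. The most abundant of them had 17 and 9 reads in the cytoplasmic libraries, 4 and 2 in the ribosomal, 2 and 1 in the cytosolic and 5 and 5 in the whole-cell libraries. Chromatin regulators hosted 22, of which 5 were tested, with none higher and 3 lower in the nucleus, 1 higher in the ribosome fraction and 4 lower in the exosome. CREBBP and SMARCA5, given above, were 2 of the 3, and ASH1L (20 and 22 reads in the cytoplasm, unlisted in the nucleus) was the third. RNA-binding and splicing factors hosted 21, of which 3 were tested, with none higher and 2 lower in the nucleus, from METTL3 and RBM39. In these RNA-binding hosts 1 was lower in the ribosome fraction (DDX21) and 2 were lower in the exosome. The median fitted log2 fold changes of the tested circRNAs in the nucleus against the cytoplasm were -1.02, 2.38, -1.21 and -1.72 in the order of the 4 lists, against -0.76 over all tested. In the last 3 lists the median is the value of a single circRNA, from P4HB, BAZ1B and METTL3, and circRNAs unlisted in the nucleus were ranked too. Of all circRNAs tested, 14.9% were higher and 33.3% lower in the nucleus than in the cytoplasm, 26.6% higher and 26.1% lower in the ribosome fraction than in the cytosol, and 4% higher and 42% lower in the exosome than in the whole cell. These small counts are descriptions against that background.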

How the data were processed

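CircRNA junction reads were measured by RNA-seq in 12 libraries of 6 HepG2 fractions. Counts of reads across each back-splice junction were deposited by library and caller, with RPTM values the authors computed from them, per the file headers. RPTM is read here as reads per 10000000 library reads, on the library totals its values imply. The build is hg38, per the submitters' processing notes. The aligner and the callers' versions are not given in the sources used here. The 2 mitochondrial samples were not analysed here.

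The 6 tables were joined on identical ends. Reads of a circRNA were the rounded mean of the callers with an entry, and unlisted circRNAs entered as 0. Hosts came from RefSeq genes of GRCh38.p14 without strand, and may be antisense neighbours. Exon structure was not analysed here, and span is genomic. Of 4679 circRNAs listed by both callers, 950 passed filterByExpr (minimum count 10). They were tested with edgeR 4.0.16 in R 4.3.3, 1 coefficient per fraction, in fits tested on simulated data. DESeq2 1.42.0 was an alternative, as were other scalings, filters and callers. Shares were compared by exact permutation over libraries. The standard error is the absolute log2 fold change over the square root of F.

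Named circRNAs were the 10 most abundant, up to 8 per direction with the largest fold change among those called, listed in both tables and not overlapping in share of circRNA reads, up to 3 per direction with the most reads among called ones listed in 1 table, the 5 most abundant of each single caller, the hosts with the most entries, those nearest the limits, and up to 4 per host list. A few circRNAs that these rules name are not reported here. The size range, lists and rules were chosen with earlier results of these data known. Junction reads carry no molecular identifiers, so counts of a few reads are imprecise, most of all in the exosomal and nuclear libraries.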

Additional observations from a re-analysis of the deposited data

How the results depend on the processing

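The count of called short-span circRNAs was 70 for nucleus against cytoplasm, 67 for ribosome against cytosol and 71 for exosome against whole cell. With no low-count filter they were 123, 214 and 58, while a filter of 5 reads in 2 libraries gave 116, 151 and 72. DESeq2 called 23, 33 and 3, with 22 higher and 1 lower, 23 and 10, and 0 and 3. With it, IBTK did not pass as higher in the exosome. Of the 5 circRNAs named as lower in the nucleus, no more than 1 passed. With implied library totals as the scale the counts were 109, 64 and 126, and with unlisted circRNAs at 1 read 40, 54 and 1. RLE factors gave 35 and total circRNA reads 14 for exosome against whole cell. Leaving out 1 library gave 23 to 66, 50 to 58 and 5 to 67, and an arm with 1 library takes its spread from the other fractions. The replicate numbers did not pair the libraries (correlations of deviations -0.0621 to 0.0829), and a replicate block gave 73, 67 and 73 calls.

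The exact permutation p of the share across fractions was 0.0691 without the 10 most-read entries, and leaving out 1 library gave 0.00269 to 0.0943. The exosome minus whole cell difference turned to -2.42 points in circRNAs listed by both callers and to -1.55 with CIRC reads. The median reads per entry turned to -0.0833 without replicate 2 (0.333 without replicate 1), and the log2 ratio of callers to 0.00024 with an upper span limit of 1200 bases and to 0.00181 without replicate 1 (-0.0101 without replicate 2), all without passing a test. The share listed by both callers has no such value without a replicate, since entries need both. Reversed single values were GCN1 (-1.53), P4HB (-0.11), MRPL2 (-1.31), PSMB5 (-1.39) and BUD23 (-0.16) in the nucleus with implied totals, GCN1 (-0.01) there with all entries, and PVT1 (0.38) and METTL3 (0.28) in the exosome with total circRNA reads. The causes were not tested. Depth limits nuclear and exosomal values most.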
